A study of Mus musculus with 6 samples.

Results

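The genes described here encode the proteins of the mitochondrial ribosome, measured in hematopoietic stem cells (HSCs) of mice that received ferulic acid (FA), a plant phenolic acid, or solvent alone. They were taken from the deposited gene table as every protein-coding row whose symbol begins with Mrpl or Mrps followed by a digit, which gave 78 of 27198 genes. Of these, 51 belong to the large subunit and 26 to the small subunit. The remaining gene, Mrps36, carries the name but encodes a subunit of the 2-oxoglutarate dehydrogenase complex. The study compared 3 libraries from solvent-treated mice (Ctrl) with 3 libraries from mice given long-term FA (l-FA). All mice were wild-type C57BL/6 males aged 8 to 10 weeks that had not been irradiated, and l-FA was 50 mg/kg by daily intraperitoneal injection for 30 days. HSCs were sorted from bone marrow as Lineage-, Sca-1+, c-Kit+, CD34- and CD135- (Flk2-) cells, and whether a library holds 1 mouse or several pooled mice is not stated in the sources used here. The p-values below therefore measure the spread between these libraries, which may be technical.

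The mitochondrial ribosome sits in the mitochondrial matrix and translates the few mRNAs that mitochondrial DNA encodes, all of them for subunits of the respiratory chain and ATP synthase. Its rRNAs are transcribed from mitochondrial DNA, whereas every one of its proteins is encoded in the nucleus, made in the cytosol and imported. Some of these proteins have counterparts in bacterial ribosomes, and others are found only in mitochondria. Adult HSCs are mostly quiescent and rely comparatively little on oxidative phosphorylation, and their mitochondrial activity increases as they leave quiescence.

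The libraries held 19287735 to 20380610 counts each, and in 2 libraries of the same group the counts of the 78 genes differed by more than counting error alone, with a median chi-square of 0.664 to 1.93 against 0.455 from counting error. Between groups the same median was 6.05 to 14.5. The sort was checked against markers. Kit RNA was abundant at a mean of 85.8 FPKM (fragments scaled to library size and to a length per gene set by the authors), and 7 of 9 listed HSC markers were higher and 1 was lower in l-FA. Cd34 and Flt3, whose proteins the sort excluded, were present as RNA at 149 and 158 FPKM and were both higher in l-FA. Slamf1, another HSC marker, was low at a mean of 0.804 FPKM. It was the 1 listed HSC marker that changed by more than 2-fold (log2 fold change 1.90 in l-FA, SE 0.19, edgeR adjusted p = 0.000338). All 10 listed granulocyte and monocyte genes, led by the myeloid peroxidase gene Mpo, were lower in l-FA, with a summed level of 22755 to 23687 CPM (counts scaled to a common library size) in Ctrl and 5659 to 5975 CPM in l-FA. The 2 B cell markers that could be tested summed to at most 2.86 CPM in any library. Of 8 cell cycle genes 4 were lower and none was higher, where 25.0% of all genes tested were lower and 25.5% higher. The sum of the 8 was 2140 to 2261 CPM in Ctrl and 2034 to 2063 CPM in l-FA. As a share of all counts, without TMM scaling, this sum overlapped between groups, at 0.209 to 0.220% in Ctrl and 0.208 to 0.213% in l-FA. The part of these marker genes in the results below was not tested. In bulk samples, fewer cells of a type and less RNA per cell cannot be told apart.

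Mitochondrial ribosomal protein genes were lower in l-FA HSCs as a group, by small amounts. In Ctrl the 78 genes summed to 4888, 4825 and 4945 CPM, and in l-FA to 4196, 4099.8 and 4044 CPM. The highest l-FA library thus lay below the lowest Ctrl library, and the mean went from 4886 ± 59.9 to 4113 ± 76.6 CPM (SD, n = 3), a change of -15.8%. As a share of all counts of a library, without TMM scaling, the 78 genes made up 0.467 to 0.483% in Ctrl and 0.414 to 0.432% in l-FA. The size of the change in the sum thus depends in part on the scaling. All 78 genes passed the filter on low counts. By edgeR's quasi-likelihood test with Benjamini-Hochberg adjustment over 16520 genes, 50 of them (64.1%) fell at an adjusted p under 0.05, 1 rose (1.28%) and 27 were not called. Over all genes tested, 25.0% were called lower and 25.5% higher. In 54 members (69.2%) the 3 l-FA libraries all lay below the 3 Ctrl libraries, and in 3 members (Mrps34, Mrpl52 and Mrpl23) all lay above, against 29.9% and 30.4% of all genes.

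Most of the changes were small. On the log2 scale the median change over the 78 members was -0.28, with quartiles of -0.34 and -0.11, and 65 genes were below 0. Over all 16520 genes the median was 0.00350 and the quartiles were -0.27 and 0.32, so that the members' median lay near the lower quartile of the transcriptome. Among the 50 genes that fell, the log2 fold change ran from -0.66 to -0.12. None of the 78 genes changed by more than 2-fold at an adjusted p under 0.05, a limit that 5.10% of all genes passed as lower and 6.68% as higher. In a test for changes beyond 1.2-fold, 12 members (15.4%) fell and none rose, against 12.6% and 14.7% of all genes. At this limit the members' share of falls lay near that of the transcriptome, and their share of rises lay below it. The 12 were Mrpl36, Mrpl19, Mrpl15, Mrpl20, Mrpl43, Mrpl51, Mrpl12, Mrpl41, Mrps10, Mrpl46, Mrps7 and Mrpl37. The members are expressed well above the filter, with 97 to 3368 counts in each library, and the median SE of their log2 fold changes was 0.056 against 0.099 over all genes. Among 7612 other protein-coding genes of the same FPKM range, 30.1% were called lower and 26.6% higher, with a median log2 fold change of -0.02.

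**Figure D1:**
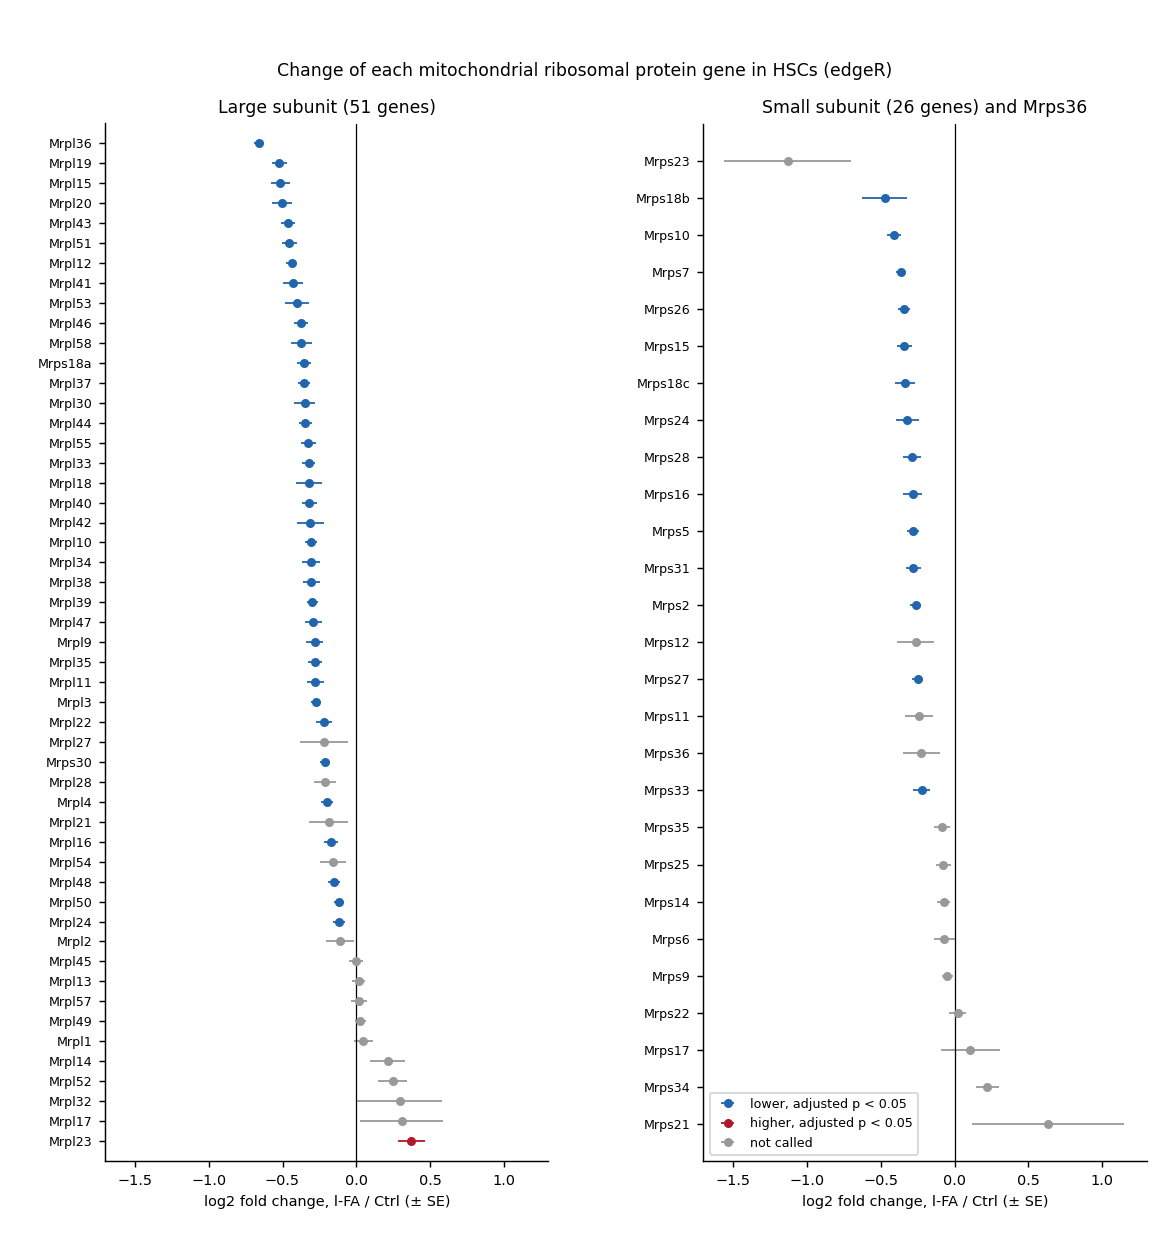
Log2 fold change of each of the 78 genes in l-FA relative to Ctrl (points) with its SE from edgeR (bars), for the 51 genes of the large subunit and for the 26 genes of the small subunit with Mrps36. The 50 blue genes fell at an adjusted p under 0.05, and Mrpl23, in red, was the 1 gene that rose.

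The start sites of the members, whether called lower or not, were examined for short sequence motifs. Promoters of 300 bases were used (250 before to 50 after the start, from RefSeq on GRCm38.p6). A promoter was found for 69 of the 78 genes, 75 promoters in all. On either strand, CCGGAAG, a motif bound by ETS factors such as GABP (nuclear respiratory factor 2), was present in 34.7% of the members' promoters and in 8.86% of all 32851 promoters. AAGATGG, from the motif of YY1, was in 17.3% against 6.34%, and GCGCATG, from the motif of NRF1 (nuclear respiratory factor 1), in 10.7% against 3.91%. The GC box GGGCGG was in 52.0% against 35.7%, while CACGTG and CCAAT were at 9.33% against 7.15% and 40.0% against 37.4%. The promoters of other genes of like level were not compared. The ETS motif was held by 17 of the 45 genes that fell and by 9 of the 24 that were not lower, a like share of both. In the same order the GC box was held by 18 and 16 genes, AAGATGG by 8 and 5, GCGCATG by 6 and 2, CACGTG by 4 and 1 and CCAAT by 19 and 8. The GC box, more frequent among the genes that were not lower, had the largest gap in shares of these 6 motifs, and none of these splits was tested. The 4 promoters below are shown because they are those of the gene that fell furthest by fold among the called members (Mrpl36), of the gene that rose (Mrpl23), and of 2 genes that fell and hold matches (Mrpl43 and Mrps18a). Capitals mark matches to the ETS, YY1 and NRF1 motifs, and the first transcribed base is base 251 of each. They lie on GRCm38.p6 at chr13:73330759-73331058 (+ strand, Mrpl36), chr7:142532782-142533081 (+, Mrpl23), chr19:45006393-45006692 (-, Mrpl43) and chr17:46110754-46111053 (+, Mrps18a).
Mrpl36: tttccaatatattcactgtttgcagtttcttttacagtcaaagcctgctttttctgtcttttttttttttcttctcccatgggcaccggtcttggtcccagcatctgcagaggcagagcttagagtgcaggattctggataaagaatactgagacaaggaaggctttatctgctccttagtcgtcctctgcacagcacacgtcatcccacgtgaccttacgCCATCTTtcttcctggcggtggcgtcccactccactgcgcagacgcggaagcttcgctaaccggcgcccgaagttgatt
Mrpl23: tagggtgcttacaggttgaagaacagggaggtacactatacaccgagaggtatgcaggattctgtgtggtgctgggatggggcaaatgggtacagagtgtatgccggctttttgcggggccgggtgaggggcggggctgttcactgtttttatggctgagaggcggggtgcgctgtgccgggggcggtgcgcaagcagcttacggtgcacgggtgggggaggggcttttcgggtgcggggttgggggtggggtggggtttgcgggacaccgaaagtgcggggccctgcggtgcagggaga
Mrpl43: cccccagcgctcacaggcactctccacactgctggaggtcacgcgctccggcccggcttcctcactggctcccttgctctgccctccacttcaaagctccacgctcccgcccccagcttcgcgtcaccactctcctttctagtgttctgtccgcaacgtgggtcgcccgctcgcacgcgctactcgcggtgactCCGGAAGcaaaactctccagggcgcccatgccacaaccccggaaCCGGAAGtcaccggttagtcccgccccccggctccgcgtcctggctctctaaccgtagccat
Mrps18a: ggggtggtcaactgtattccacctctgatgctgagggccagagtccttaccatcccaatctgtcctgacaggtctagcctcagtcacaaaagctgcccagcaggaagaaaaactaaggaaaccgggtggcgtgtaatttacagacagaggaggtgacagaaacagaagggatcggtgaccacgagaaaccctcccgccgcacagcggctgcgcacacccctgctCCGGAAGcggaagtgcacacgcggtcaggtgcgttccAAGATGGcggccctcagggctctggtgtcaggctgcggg
Mrpl43 has ETS matches that start at bases 195 and 239, before the start site. Mrps18a has an ETS match at base 225 and a YY1 match at base 262, the latter after the start site. Mrpl36 has a YY1 match at base 222 on the other strand, and Mrpl23 has no match to the ETS, YY1 and NRF1 motifs in this window, although it holds the GC box.

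Mrpl36, which encodes a small zinc-binding protein of the large subunit, had 104, 102 and 104 CPM in Ctrl and 65.0, 66.3 and 64.8 CPM in l-FA. The groups lay far apart and the libraries within each were nearly equal. Its level changed by -36.7% (log2 fold change -0.66, SE 0.031, edgeR adjusted p = 2.4e-05). The gene lies at chr13:73476632-73480297 (GRCm39) and its locus overlaps that of Ndufs6, a complex I subunit gene on the other strand, so reads of the 2 genes may not have been separated. Mrpl19, a protein at the interface of the subunits, had 107, 114 and 114 CPM in Ctrl and 76.4, 74.3 and 83.1 CPM in l-FA (log2 fold change -0.52, SE 0.053, edgeR adjusted p = 0.000358), at chr6:81934832-81942939. Mrpl15 and Mrpl20 both encode proteins that bind the rRNA of the large subunit. For Mrpl15 the levels were 62.8, 72.4 and 68.2 CPM in Ctrl and 45.4, 49.5 and 47.5 CPM in l-FA, a log2 fold change of -0.52 (SE 0.064, edgeR adjusted p = 0.000802). For Mrpl20, at chr4:155887335-155894432 with no listed gene overlapping it, they were 64.5, 58.3 and 65.1 CPM in Ctrl and 46.5, 41.0 and 45.1 CPM in l-FA, a log2 fold change of -0.50 (SE 0.068, edgeR adjusted p = 0.00115). In all 4 genes every l-FA library was below every Ctrl library.

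Mrpl43 and Mrpl51 belong to the proteins without a bacterial counterpart. Mrpl43 had 72.2, 69.6 and 68.7 CPM in Ctrl and 53.1, 48.5 and 51.0 CPM in l-FA (log2 fold change -0.46, SE 0.047, edgeR adjusted p = 0.000346). Mrpl51 had 66.4, 61.8 and 66.7 CPM in Ctrl and 49.7, 45.9 and 46.5 CPM in l-FA (log2 fold change -0.46, SE 0.052, edgeR adjusted p = 0.00057). Both showed the same pattern as the genes above, with a gap between the groups that exceeded the spread within them. The Mrpl43 locus, chr19:44993268-44994881, overlaps that of Twnk, the mitochondrial DNA helicase gene on the other strand.

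For the stalk of the large subunit, which recruits translation factors, the RNA of all 3 named proteins was lower. Mrpl12 had 163, 160 and 169 CPM in Ctrl and 126, 119 and 119 CPM in l-FA, a change of -26.2% (log2 fold change -0.44, SE 0.037, edgeR adjusted p = 0.000185), at chr11:120375439-120379891 with no listed gene overlapping it. Mrpl10, which anchors Mrpl12, had 104, 97.2 and 97.9 CPM in Ctrl and 81.9, 82.1 and 77.4 CPM in l-FA (log2 fold change -0.31, SE 0.042, edgeR adjusted p = 0.00126). Mrpl11, at the base of the stalk, had 35.7, 31.9 and 33.0 CPM in Ctrl and 28.0, 27.3 and 27.7 CPM in l-FA (log2 fold change -0.28, SE 0.058, edgeR adjusted p = 0.0075). The groups did not overlap in any of the 3.

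Mrps18a, Mrps18b and Mrps18c are paralogs that occupy different places, Mrps18a in the large subunit despite its name and the others in the small subunit. Mrps18a had 56.2, 52.7 and 58.4 CPM in Ctrl and 44.4, 43.5 and 43.0 CPM in l-FA (log2 fold change -0.35, SE 0.050, edgeR adjusted p = 0.00136). Mrps18c had 40.7, 38.7 and 44.5 CPM in Ctrl and 32.3, 31.6 and 34.4 CPM in l-FA (log2 fold change -0.33, SE 0.068, edgeR adjusted p = 0.00654). Mrps18b was the most variable of the 3, at 48.9, 52.5 and 39.4 CPM in Ctrl and 38.5, 35.5 and 27.6 CPM in l-FA (log2 fold change -0.47, SE 0.15, edgeR adjusted p = 0.0393). All 3 paralogs fell, although the Mrps18b call was lost without Ctrl replicate 1, Ctrl replicate 2, l-FA replicate 2 or l-FA replicate 3, at an edgeR adjusted p of 0.102, 0.115, 0.0754 and 0.088.

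Other members fixed by their role differed among themselves. Mrpl58, a peptidyl-tRNA hydrolase of the large subunit that frees peptides from stalled ribosomes, had 29.2, 28.2 and 31.5 CPM in Ctrl and 23.7, 23.9 and 21.2 CPM in l-FA (log2 fold change -0.37, SE 0.074, edgeR adjusted p = 0.0058). Mrpl45, which lies near the peptide exit and holds the ribosome to the inner membrane, had 87.3, 84.5 and 81.4 CPM in Ctrl and 83.4, 88.6 and 81.2 CPM in l-FA. Its groups overlapped and its means were both 84.4 CPM (edgeR adjusted p = 0.992), and the sign of its log2 fold change turned with the scaling. Mrps12, a protein of the decoding centre, had 33.3, 24.4 and 31.6 CPM in Ctrl and 23.0, 26.8 and 24.6 CPM in l-FA (log2 fold change -0.26, SE 0.13, edgeR adjusted p = 0.129). Mrps36, the dehydrogenase subunit, had 6.20, 8.25 and 6.78 CPM in Ctrl and 5.86, 6.18 and 6.11 CPM in l-FA, without a call (edgeR adjusted p = 0.184).

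By subunit, 36 of 51 large-subunit genes fell (70.6%), 1 rose and 14 were not called, with a median log2 fold change of -0.28. Of the 26 small-subunit genes, 14 fell (53.8%), none rose and 12 were not called, with a median of -0.26. These counts and those by origin below stand beside 25.0% lower and 25.5% higher over all genes tested. The summed level of the large-subunit genes went from 3353 ± 46.4 to 2809.9 ± 85.9 CPM (SD, n = 3), a change of -16.2%, and that of the small-subunit genes from 1527 ± 17.1 to 1297 ± 13.5 CPM, a change of -15.0%. The subunits thus had nearly equal changes in their sums, which include genes with 1 l-FA library apart. From Ctrl to l-FA, mean CPM went from 58.8 to 26.9 for Mrps23 and from 5.90 to 9.12 for Mrps21 (small subunit). It went from 27.1 to 33.2 for Mrpl32 and from 51.3 to 63.5 for Mrpl17 (large subunit). Sums by subunit without these genes were not taken. By origin, 29 of 46 genes with a bacterial counterpart fell and 1 rose (median -0.28), and 21 of 31 genes found only in mitochondria fell and none rose (median -0.30). No test of the difference between these classes was made.

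**Figure D2:**
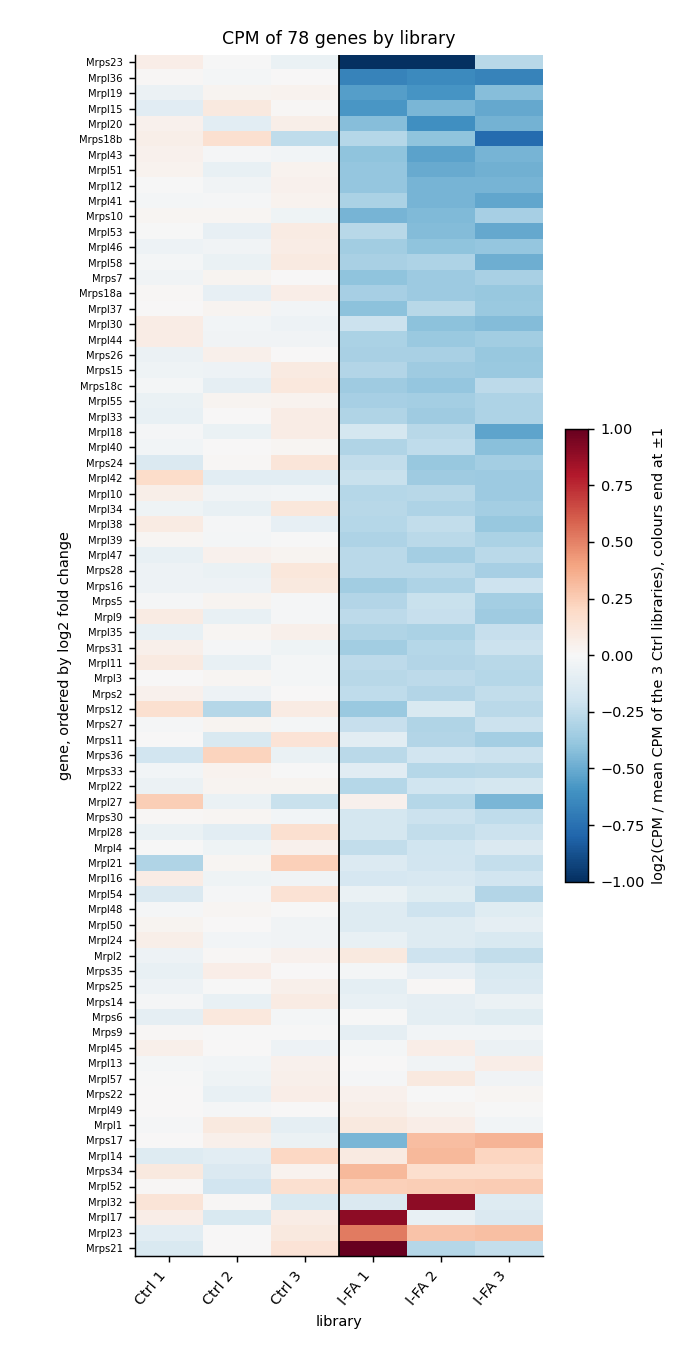
Level of each of the 78 genes in each of the 6 libraries, as log2 of its CPM over the mean CPM of the 3 Ctrl libraries, in order of the log2 fold change (colours end at ±1). Most genes are blue in all 3 l-FA libraries, whereas Mrps23, Mrps21, Mrpl32 and Mrpl17 have a single l-FA library that stands apart from the others.

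Mrpl23, a protein at the exit of the peptide tunnel, was the exception in direction. It had 19.3, 20.8 and 22.2 CPM in Ctrl and 29.9, 25.4 and 25.6 CPM in l-FA, so that the groups did not overlap and the mean changed by 29.5% (log2 fold change 0.37, SE 0.090, edgeR adjusted p = 0.0133). The gene lies at chr7:142086423-142094484. The table also lists a processed pseudogene, Mrpl23-ps1, with 465, 484 and 626 counts in Ctrl and 617, 583 and 569 counts in l-FA (log2 fold change 0.09, edgeR adjusted p = 0.488). Reads of near-identical copies could be split between the 2, so the value of Mrpl23 is less certain than those above. Mrps34 and Mrpl52 had all l-FA libraries above all Ctrl libraries without passing the test, with log2 fold changes of 0.22 and 0.25 (edgeR adjusted p = 0.0546 and 0.0776).

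In some members a single l-FA library decided the value. Mrps23, a small-subunit protein found only in mitochondria, had 61.6, 58.5 and 56.2 CPM in Ctrl and 16.2, 16.0 and 48.4 CPM in l-FA. These are 1182, 1091 and 1120 counts against 341, 320 and 967, so the first and second l-FA libraries lay far below the others, and the last lay just below Ctrl. The log2 fold change was -1.13, larger than that of any other member, but did not pass the test (SE 0.43, edgeR adjusted p = 0.0678). Without l-FA replicate 3 it was -1.86 (edgeR adjusted p = 7.64e-05). No listed gene overlaps Mrps23, at chr11:88095214-88102333. Mrps21, a small-subunit protein, went the other way in 1 library, with 5.32, 5.90 and 6.47 CPM in Ctrl and 17.5, 4.84 and 5.01 CPM in l-FA. The change was 0.63 on the log2 scale (SE 0.52, edgeR adjusted p = 0.351), and -0.25 without l-FA replicate 1.

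Mrpl32, a large-subunit protein that a protease of the inner membrane matures, had 29.6, 27.3 and 24.4 CPM in Ctrl and 24.6, 50.3 and 24.7 CPM in l-FA. The change was 0.29 on the log2 scale (SE 0.29, edgeR adjusted p = 0.44), and -0.12 without l-FA replicate 2. Mrpl17, a large-subunit protein named after its values were seen, had 53.7, 46.1 and 54.1 CPM in Ctrl and 95.5, 48.7 and 46.3 CPM in l-FA (log2 fold change 0.31, SE 0.28, edgeR adjusted p = 0.404). Mrps17, a small-subunit protein, had 46.8, 48.6 and 45.0 CPM in Ctrl and 34.1, 57.8 and 59.2 CPM in l-FA (log2 fold change 0.11, SE 0.20, edgeR adjusted p = 0.692). Here l-FA replicate 1 was the low library, and without it the log2 fold change was 0.34 (edgeR adjusted p = 0.00454). The library that stood apart was not the same in these genes, and the median of the members without Mrps23, Mrps21 and Mrpl32 was -0.28.

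**Figure D3:**
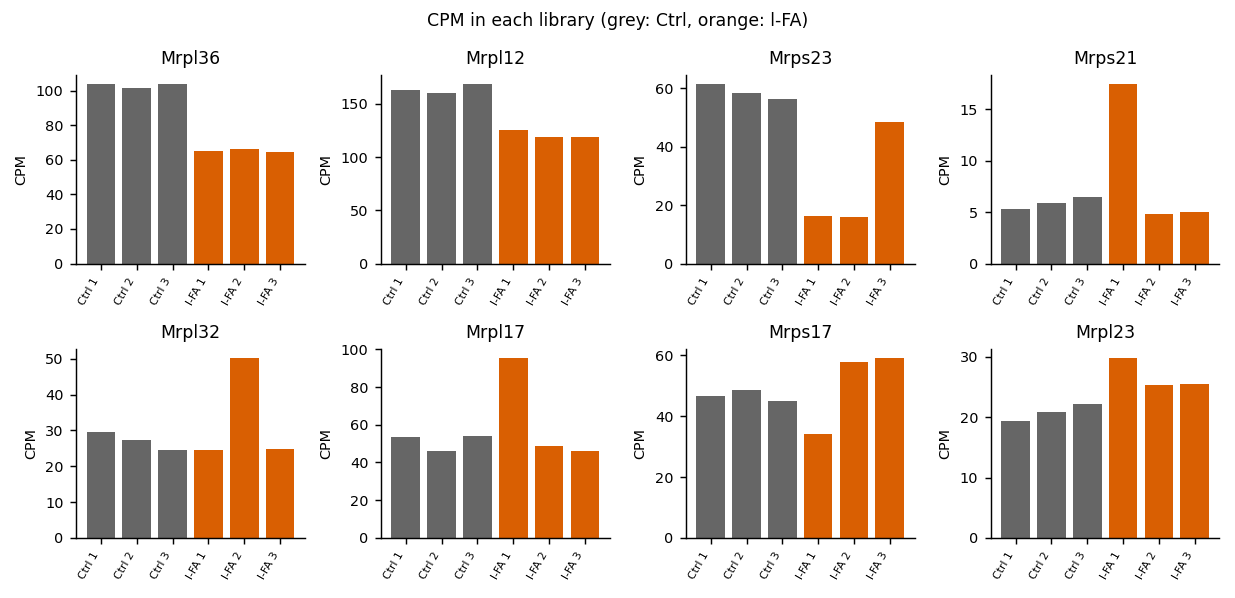
CPM of 8 genes in each library (bars from 0, grey for Ctrl and orange for l-FA). Mrpl36 and Mrpl12 were even within each group, Mrpl23 was higher in all 3 l-FA libraries, and Mrps23, Mrps21, Mrpl32, Mrpl17 and Mrps17 had 1 l-FA library away from the other two.

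Levels of different genes were first compared with the authors' FPKM. The length behind these values, recovered from count and FPKM, was longer than the gene's whole locus in 14 of the 78 members and had a median of 1.38 times the length of its exons without overlap (GENCODE M21, by gene identifier), up to 2.73 times. The FPKM therefore understates the level per exon length by different factors, and levels were also taken as CPM per kilobase of exons without overlap, a measure added after seeing the data. Over the 77 ribosomal genes the mean FPKM ran from 3.22 for Mrpl58 to 76.3 for Mrpl12, a 23.7-fold range, with quartiles of 9.35 and 23.2, although most of these proteins are present in 1 copy per ribosome and Mrpl12 in several. After Mrpl12 came Mrpl34, a large-subunit protein, at 71.1 FPKM and Mrpl18, also of the large subunit, at 62.8 FPKM. At the low end Mrps36 was at 2.48 FPKM, Mrpl58 at 3.22 FPKM and Mrps17 at 3.51 FPKM. Per kilobase of exons the order was in part different. Mrpl18 stood highest at 100.5 CPM per kilobase, ahead of Mrpl12 at 93.0 and Mrpl36 at 72.6, and Mrpl34 was the fourth at 71.4. The lowest were Mrpl23 at 4.89, Mrps36 at 5.15 and Mrpl47 at 5.84 CPM per kilobase, whereas Mrpl58 was at 7.89 and Mrps17 at 7.48. The range over the 77 ribosomal genes was 20.6-fold, and Spearman's rho between both measures over the 78 genes was 0.945. By FPKM, the order of the levels was nearly the same in Ctrl and l-FA (Spearman's rho across the 78 genes 0.973). Mrpl34 had 46.4, 45.4 and 52.0 CPM in Ctrl and 39.6, 38.7 and 38.0 CPM in l-FA, and it fell (log2 fold change -0.31, SE 0.062, edgeR adjusted p = 0.00645). Mrpl18 had 155, 149 and 164 CPM in Ctrl and 138, 129 and 108 CPM in l-FA (log2 fold change -0.32, SE 0.091, edgeR adjusted p = 0.0244). The l-FA libraries of Mrpl18 spread more than those of Mrpl34, and its adjusted p was 0.0572, 0.0734 and 0.054 by edgeR without Ctrl replicate 1, Ctrl replicate 3 or l-FA replicate 2. Across the 78 genes, which share the same 6 libraries, Spearman's rho of the mean FPKM with the log2 fold change was -0.308 and that of the length behind FPKM with it was 0.145, given as descriptions.

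**Figure D4:**
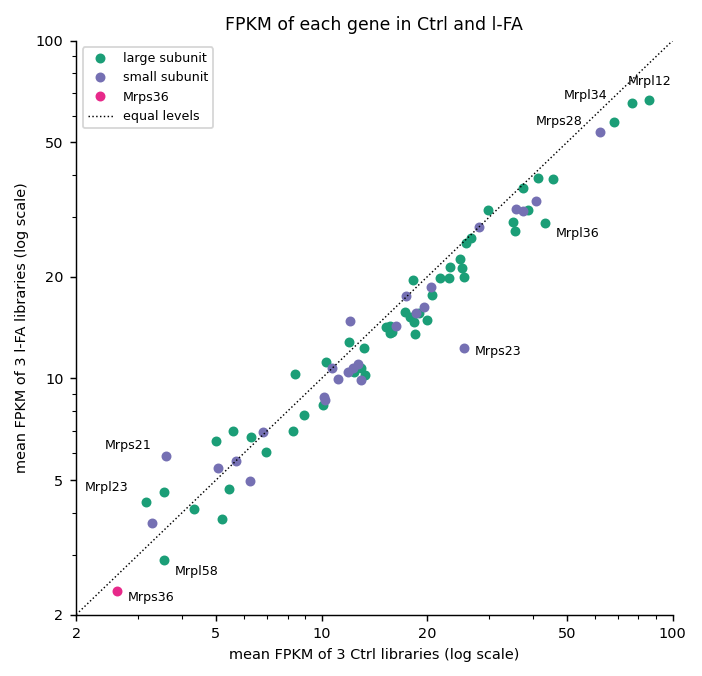
Mean FPKM of each of the 78 genes in 3 Ctrl libraries (horizontal) and 3 l-FA libraries (vertical), on log scales, with a dotted line of equal levels. Most genes lie just below the line across the 23.7-fold range of levels, with Mrps23 farthest below it and Mrps21 and Mrpl23 above it.

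Many of these genes share their locus with another listed gene, and the sources used here do not state whether counting used strand. For 40 of the 78 members another listed gene overlapped the locus, and 27 of these 40 fell, with a median log2 fold change of -0.29. Of the other 38, 23 fell and 1 rose, with a median of -0.26. Across all genes tested, 25.0% fell and 25.5% rose. The medians of these groups of members lay close together, and the difference between the groups was not tested. The part of reads shared between overlapping genes in these values was not tested either. Mrpl46 and Mrps11, 1 protein of each subunit, overlap head to head at their starts, and Mrpl46 fell (log2 fold change -0.38, SE 0.048, edgeR adjusted p = 0.000882) while Mrps11 did not pass the test (-0.24, SE 0.094, edgeR adjusted p = 0.0732). Their difference was not tested.

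The mitoribosome also has proteins whose genes do not carry the Mrp name. Of 5 such genes 4 fell (against 25.0% of all genes), among them Dap3, a GTP-binding protein of the small subunit, which had 107, 105 and 107 CPM in Ctrl and 86.5, 85.6 and 83.0 CPM in l-FA (log2 fold change -0.32, SE 0.032, edgeR adjusted p = 0.000347). Chchd1, also of the small subunit, fell with a log2 fold change of -0.48 (SE 0.059, edgeR adjusted p = 0.00076), Ptcd3 by -0.19 (edgeR adjusted p = 0.00513) and Gadd45gip1 by -0.29 (edgeR adjusted p = 0.00674). Aurkaip1 had 45.9, 86.5 and 51.7 CPM in Ctrl and 37.0, 38.3 and 42.8 CPM in l-FA, so that the groups did not overlap but 1 Ctrl library was far above the others, and it was not called (edgeR adjusted p = 0.0596).

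Both mitochondrial rRNAs were lower as well. The large rRNA, mt-Rnr2, had 153, 149 and 146 CPM in Ctrl and 105, 102 and 93.9 CPM in l-FA (log2 fold change -0.57, SE 0.048, edgeR adjusted p = 0.000183). The small rRNA, mt-Rnr1, had 22.6, 19.1 and 21.6 CPM in Ctrl and 15.7, 17.5 and 17.3 CPM in l-FA (log2 fold change -0.33, SE 0.087, edgeR adjusted p = 0.0194, and 0.0579 with the replicate number as a block). The cDNA was primed with oligo-dT, which captures rRNA only in part, so these values are not rRNA content. The 13 mitochondrial mRNAs that the ribosome translates had a median of -0.08. Among them 5 were lower (38.5%) and 1 was higher (7.69%), against 25.0% and 25.5% of all genes. These were small changes, such as -0.20 for the cytochrome b mRNA mt-Cytb (SE 0.019, edgeR adjusted p = 0.000279) and -0.23 for the complex I mRNA mt-Nd1 (SE 0.026, edgeR adjusted p = 0.000528), while the cytochrome oxidase mRNA mt-Co1 rose by 0.05 (SE 0.015, edgeR adjusted p = 0.044). Of 4 genes of mitochondrial transcription, 2 fell (50%, against 25.0% of all genes) and none rose. Those that fell were the factors Tfb2m (-0.51, SE 0.061, edgeR adjusted p = 0.00072) and Tfam (-0.35, SE 0.067, edgeR adjusted p = 0.0049). The RNA polymerase gene Polrmt (0.10, edgeR adjusted p = 0.105) and Tefm (0.14, edgeR adjusted p = 0.626) did not pass the test.

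Among the factors that act with the mitoribosome, translation factors were mostly lower. Of 13 genes listed as translation factors, among them the membrane insertase gene Oxa1l, 7 fell (53.8%) and none rose (median -0.26). Over all genes 25.0% fell and 25.5% rose. The elongation factor gene Tufm, which delivers aminoacyl-tRNAs, had 67.3, 65.5 and 65.4 CPM in Ctrl and 45.6, 46.7 and 43.7 CPM in l-FA (log2 fold change -0.54, SE 0.041, edgeR adjusted p = 0.000123). Its exchange factor Tsfm fell by 0.51 on the log2 scale (SE 0.041, edgeR adjusted p = 0.000147), and Gfm2, which acts in ribosome recycling, by 0.36 (SE 0.056, edgeR adjusted p = 0.00211). A list of 22 genes for tRNA charging in mitochondria held aminoacyl-tRNA synthetases and the amidotransferase subunits Gatb, Gatc and Qrsl1. Of these 22 genes, 12 fell (54.5%) and 2 rose (9.09%), with a median of -0.19. Sars2, for serine, fell by 0.54 (SE 0.039, edgeR adjusted p = 9.89e-05), Gars, for glycine and also used in the cytosol, by 0.36 (SE 0.027, edgeR adjusted p = 0.000123) and Aars2, for alanine, by 0.42 (SE 0.045, edgeR adjusted p = 0.000448), while Lars2 and Ears2, for leucine and glutamate, rose by 0.43 and 0.32. The list of 28 factors for ribosome assembly and for RNA processing and stability was mixed, with 9 lower (32.1%) and a median of -0.05. In it 5 were higher (17.9%, Mrm1, Mettl15, Ngrn, Rpusd4 and Mterf3). Its share of lower genes was near the 30.1% of protein-coding genes of the members' FPKM range. Its leading genes were Lrpprc, which stabilizes mitochondrial mRNAs, at -0.60 (SE 0.035, edgeR adjusted p = 4.76e-05), Noa1, a GTPase of ribosome assembly, at -0.47 (SE 0.032, edgeR adjusted p = 8.46e-05) and Trub2, a pseudouridine synthase, at -0.45 (SE 0.051, edgeR adjusted p = 0.000526).

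The ribosome of the cytosol translates the mRNAs of nuclear genes, and its protein genes were counted in the same way. Of 81 cytosolic ribosomal protein genes 16 fell (19.8%), 6 rose (7.41%) and 59 were not called. Both percentages lay below those of all genes tested, 25.0% lower and 25.5% higher. On the log2 scale the median over these 81 genes was -0.04. Their summed level was 10976 ± 215 CPM in Ctrl and 10769 ± 259 CPM in l-FA (SD, n = 3), a change of -1.89%, and the libraries of the groups overlapped. As a share of all counts of a library, without TMM scaling, they made up 1.04 to 1.10% in Ctrl and 1.08 to 1.14% in l-FA. The sign of this small change thus depends on the scaling. Rpl10 (-0.57, SE 0.072, edgeR adjusted p = 0.000866) and Rpl36al (-0.44, SE 0.068, edgeR adjusted p = 0.00209) fell, and Rps20 rose (0.39, SE 0.065, edgeR adjusted p = 0.00279). Many of these genes have near-identical pseudogenes, which makes their counts less certain. The difference between the 2 lists was not tested.

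**Figure D5:**
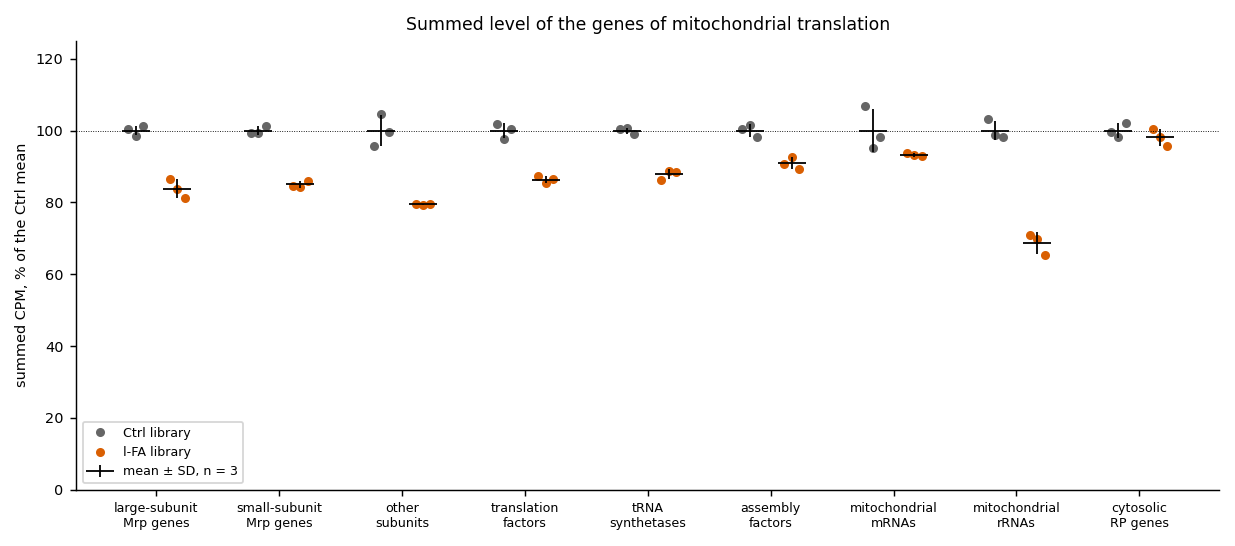
Summed CPM of each list of genes in each library as a percent of its Ctrl mean (points), with the mean and SD of 3 libraries (black). By CPM, the l-FA libraries lie below all Ctrl libraries in every list except the cytosolic ribosomal protein (RP) genes, where the change was -1.89%. The mitochondrial rRNAs show the lowest sums at -31.3%. As a share of all counts, without TMM scaling, the mitochondrial mRNAs overlapped, at 0.626 to 0.705% in Ctrl and 0.647 to 0.657% in l-FA. Ctrl replicate 1 was high in mt-Atp6, at 17911 counts against 5773 and 6307 in the other Ctrl libraries. The list labelled tRNA synthetases includes amidotransferase subunits.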

How the data were processed

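RNA of sorted HSCs was amplified as cDNA (SMART-Seq HT, oligo-dT primed, without molecular identifiers) and sequenced. For each gene and library the authors deposited a raw count and an FPKM value made from it. The submitters' processing notes name HISAT2, SAMtools 1.3.1, StringTie, edgeR and GRCm39, and strand use in counting is not given in the sources used here. Totals were 19287735 to 20380610 counts per library, and libraries of the same group differed by more than counting error alone.

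The test was that of edgeR 4.0.16, run in R 4.3.3 (filterByExpr, TMM, quasi-likelihood F-test, Benjamini-Hochberg adjustment over 16520 genes, threshold 0.05). CPM values are TMM-scaled, the SE is the log2 fold change over the square root of F, and ± is an SD. FPKM served for levels and to choose genes of like level, beside CPM per kilobase of GENCODE M21 exons. Alternatives were RLE and upper-quartile scaling, DESeq2 1.42.0, other filters, a replicate block, size limits, member subsets and leaving out each library.

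The members and lists were chosen with earlier results of these data known. Mrps28 was given its subunit and origin after the files were seen, and the cytosolic list was cleared of kinases and paralog-like names. Named members were the 8 largest called falls and rises without overlap between groups, members of fixed roles, the 3 highest and lowest by mean FPKM, members in which 1 library stood 2-fold or more from the others of its group, and the 3 genes of smallest adjusted p in each context list. The leave-out of members with such a library was added after seeing the data. A T cell list held 2 genes of the table, neither of which passed the filter, and the erythroid list (4 genes, 1 lower and 1 higher) and megakaryocyte list (3 genes, 2 higher) were further checks. Mitochondrial transcripts are those of the table's MT chromosome.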

Additional observations from a re-analysis of the deposited data

How the results depend on the processing

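On the log2 scale the median change over the members stayed between -0.25 and -0.29 under every alternative run. A fit scaled to library totals alone was not run. The count of genes that fell was 50, and 47 to 51 under other scalings, filters, DESeq2 and the replicate block. It was 41 to 48 with 1 library left out, and 40 genes fell in all 6 of those fits. It was 12 beyond 1.2-fold, 0 above 2-fold, and 23 among the 38 members that no listed gene overlaps. The count that rose was 1, and it was 2 with upper-quartile scaling, DESeq2 and the replicate block (Mrps34 being added), 1 to 3 with 1 library left out, and 0 beyond 1.2-fold, above 2-fold and without the members that have a pseudogene. Replicate numbers are shared by the groups' labels but did not pair the libraries: deviations of same-numbered libraries correlated at 0.0187, -0.0132 and -0.05 over all genes. With the replicate block 47 members fell, 46 of them among the 50.

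Of 576 values of 48 named genes under 12 alternatives, 547 kept direction and call, 12 lost the call, 7 gained one and 10 changed sign. For Mrpl45 the log2 fold change was 0.00043 with RLE, 0.023 with upper-quartile scaling, 0.00059 with DESeq2, 0.0067 with at least 10 counts in every library, and -0.033 to 0.039 with 1 library left out. With 1 library left out, Mrpl32 ran from -0.12 to 0.48, Mrps17 from -0.013 to 0.34 and Mrps21 from -0.25 to 0.95. The cause was not tested, other than that in each of these 3 genes 1 l-FA library lay apart. Every member had at least 97 counts in every library.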

Other observations

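Many of the members lie head to head with another gene. For 37 of the 78 a gene on the opposite strand starts within 1000 bases, and 32 such neighbours outside the member list could be tested, of which 11 fell (34.4%), 5 rose (15.6%) and 16 were not called. Over all genes 25.0% fell and 25.5% rose, and among protein-coding genes of the members' FPKM range 30.1% fell, so the share of neighbours that fell lay near the background. Beside the 20 members that fell and had a tested neighbour, 8 neighbours fell, 3 rose and 9 were not called. Twnk, the mitochondrial DNA helicase gene beside Mrpl43, had a log2 fold change of -0.47 (SE 0.041, edgeR adjusted p = 0.000199), near the -0.46 of Mrpl43, and the loci overlap, so shared reads were not told apart. Ndufs6, beside Mrpl36, had -0.35 (edgeR adjusted p = 0.0139) against -0.66. Sars2, beside Mrps12, fell by 0.54 on the log2 scale, while Mrps12 itself was not called.

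The members are spread over 17 chromosomes, with 11 on chromosome 11, 8 on chromosome 17 and 7 on chromosome 6. Of the pseudogenes that share a member's symbol, Mrpl48-ps fell (log2 fold change -0.44, edgeR adjusted p = 0.0194) beside a fall of 0.15 in Mrpl48 itself, so reads of the 2 may be shared.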
